A study of Mus musculus with 21 samples.

Results

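ADAMTS proteases (a disintegrin and metalloproteinase with thrombospondin motifs) are secreted zinc enzymes that cut the proteins of the extracellular matrix. The 10 members described here, Adamts1, Adamts2, Adamts4, Adamts5, Adamts7, Adamts8, Adamts9, Adamts10, Adamts12 and Adamts15, were taken by gene symbol from the 53801 gene identifiers of mouse RNA-seq count tables. All 10 were found, each as 1 Ensembl identifier. The study asked whether fibroblast activation protein (Fap), a serine protease of activated fibroblasts, bears on repair of the heart after myocardial infarction (MI). Heart libraries came from tissue labelled border zone, the myocardium beside an infarct, at day 7. They fell into FAPI hearts (wild type, infarcted and given the agent that the labels name FAPI, 4 libraries), FapKO hearts (genotype FapKO, infarcted, 4 libraries), MI hearts (wild type, infarcted, 4 libraries) and sham hearts (wild type, sham-operated, 3 libraries). A second experiment cultured mouse ventricular cardiac fibroblasts in a 5% gelatin methacryloyl (GelMA) hydrogel for 7 days, either in co-culture with heart and lung endothelial cells at 2 to 1 (3 libraries) or alone as 3D-culture (3 libraries). The labels do not give strain, age, sex or the knockout allele, nor the identity and dose of FAPI. Co-cultured fibroblasts were flow-sorted as CD45-, CD31- and Pdgfra+ before lysis and the cells grown alone were not, so the partner cells and the sort cannot be told apart. The labels call the cultures biological replicates but do not tie each heart library to an animal of its own. Spread is therefore that of libraries, which may be technical, and p-values are read as such.

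ADAMTS enzymes are made as inactive precursors whose prodomain is removed by furin-like convertases, and their thrombospondin-type repeats hold them in the matrix. Adamts1, Adamts4, Adamts5, Adamts8, Adamts9 and Adamts15 are proteoglycanases, which cut large chondroitin sulphate proteoglycans such as versican and aggrecan. Adamts2 removes the amino-terminal propeptide of fibrillar procollagens so that they can assemble into fibrils, Adamts7 and Adamts12 form a pair with a shared domain plan that cuts cartilage oligomeric matrix protein (Comp), and Adamts10 binds fibrillin microfibrils. Tissue inhibitor of metalloproteinases 3 (Timp3) blocks several of them, and the receptor Lrp1 takes Adamts4 and Adamts5 into cells.

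All 10 members carry a zinc-binding catalytic site, and its coding sequence is shown because it shows how alike they are where they cut. Each run of 36 bases codes for the 12 residues of the zinc-binding site, and capitals mark the codons of the 3 histidines that hold the zinc and of the catalytic glutamate. The sequences are GRCm38 (mm10) reference coding sequence of GENCODE M21 transcripts, written 5′ to 3′ on the coding strand.
Adamts1: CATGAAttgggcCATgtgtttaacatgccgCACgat
Adamts4: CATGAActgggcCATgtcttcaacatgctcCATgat
Adamts5: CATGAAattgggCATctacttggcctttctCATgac
Adamts8: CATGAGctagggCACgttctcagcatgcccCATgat
Adamts15: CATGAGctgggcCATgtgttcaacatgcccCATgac
Adamts9: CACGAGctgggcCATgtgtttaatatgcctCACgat
Adamts2: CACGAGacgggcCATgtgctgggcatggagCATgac
Adamts7: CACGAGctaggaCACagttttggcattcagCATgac
Adamts12: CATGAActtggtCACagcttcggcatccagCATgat
Adamts10: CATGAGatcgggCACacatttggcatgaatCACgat
All 10 runs differed. Over the 45 pairs, between 20 and 32 of the 36 bases were the same. The highest counts were 32 for Adamts4 and Adamts15, both proteoglycanases, and 31 for Adamts1 and Adamts9. Adamts7 and Adamts12 shared 28. In all 10 genes an intron splits the site. The junction follows base 10 in Adamts1, Adamts4, Adamts5, Adamts8 and Adamts15, and follows base 17 in Adamts2, Adamts7, Adamts9, Adamts10 and Adamts12, so Adamts9 has the intron position of the second group although it is a proteoglycanase. In Adamts8 the split site spans chr9:30952721-30953381 on the plus strand, in exons 3 and 4, and in Adamts15 it spans chr9:30911252-30911690 on the minus strand, in exons 2 and 3.

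Total counts per library ran from 25798766 to 37287355 in FAPI hearts, from 24519009 to 30571068 in FapKO hearts, from 18474138 to 25927151 in MI hearts and from 20827206 to 25943873 in sham hearts. Cultures were shallower, with 4735337 to 6346015 counts in co-culture and 12871240 to 15650221 in 3D-culture. Levels are given as CPM, the counts of a gene scaled to a common library total, after edgeR's composition scaling (TMM), and differences as log2 fold changes (LFC). Scaling mattered here: the median LFC over all genes was 0.14 for MI against sham with that scaling and 1.23 with plain total-count scaling, and 53.7% and 86.1% of the genes called were higher. With the 2 scalings in that order, the share that was higher for FAPI against MI was 60.1% and 14.6%, and for FapKO against MI 49.1% and 16.6%. For FAPI against sham it was 52.4% and 86.8%, for FapKO against sham 48.7% and 91.7%, for FAPI against FapKO 53.5% and 67.9%, and for the cultures 50.7% and 32.7%. The targeted gene Fap had 7.75, 8.40, 10.4 and 6.47 CPM in FAPI hearts, 2.19, 2.32, 2.36 and 1.79 CPM in FapKO hearts, 11.1, 13.2, 9.40 and 11 CPM in MI hearts and 2.71, 3.40 and 3.86 CPM in sham hearts. Every FapKO library was below every other heart library, as the labels say, and none was at 0. Cell type markers moved with the groups: the summed level of 12 cardiomyocyte genes was 33859 to 60060 CPM in FAPI hearts, 49506 to 59422 in FapKO hearts, 10733 to 32135 in MI hearts and 87388 to 100036 in sham hearts. The sum of 8 macrophage genes was 1573 to 2068 CPM in FAPI hearts, 903 to 1390 in FapKO hearts, 2461 to 3137 in MI hearts and 759 to 806 in sham hearts. The sum of 7 fibroblast genes was 3032 to 4024 CPM in FAPI hearts, 3003 to 3512 in FapKO hearts, 3719 to 4029 in MI hearts and 2987 to 3128 in sham hearts. That sum hides opposite moves. In MI against sham 6 of the 7 genes were higher and 1 was lower (37.1% and 32.0% of all genes), with a median LFC of 1.25. The lower gene, Gsn, averaged 384 ± 31.4 CPM in MI hearts and 1265 ± 53.0 CPM in sham hearts (SD, n = 4 and 3). No gene of these 3 lists was at 0 in hearts. Since the tissue was sequenced in bulk, fewer cells of a type and less RNA per cell cannot be told apart.

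To set levels of different members side by side, they were scaled to CPM per kilobase of exon. This takes counts to grow with exon length, which was not tested for these libraries, made by a modified Smart-seq2 protocol with UMI barcodes. The order of members and the ratios between members rest on it. In MI hearts the order of levels ran from Adamts2, at 15.7 ± 2.33 CPM per kilobase (SD, n = 4), through Adamts1 at 4.30 ± 0.527, Adamts10 at 2.86 ± 0.487 and Adamts5 at 2.34 ± 0.415, to Adamts8 at 0.168 ± 0.0325. Adamts10 and Adamts5 were within their spread of each other. So was each neighbour in the run Adamts12, Adamts4, Adamts15 and Adamts7, which averaged between 0.648 and 0.952 CPM per kilobase. In sham hearts Adamts2 was again first at 3.55 ± 0.460 CPM per kilobase (SD, n = 3), but Adamts7 came next at 2.98 ± 0.481, followed by Adamts1 at 2.48 ± 0.437, and these 3 neighbours had spreads that touch. The last 5 in sham hearts, Adamts9, Adamts12, Adamts15, Adamts4 and Adamts8, all averaged between 0.110 and 0.202 CPM per kilobase and were not separated by their spread. FAPI and FapKO hearts kept Adamts2, Adamts1, Adamts10 and Adamts5 as the first 4, and differed at the low end, where Adamts15 was last in FAPI hearts at 0.240 ± 0.0844 and Adamts9 was last in FapKO hearts at 0.279 ± 0.00888 CPM per kilobase, within the spread of Adamts4 above it. Adamts2, Adamts5 and Adamts1 led in fibroblast cultures: co-culture had 32.9 ± 3.01 CPM per kilobase of Adamts2, 12.5 ± 1.57 of Adamts5 and 12.2 ± 1.39 of Adamts1, and 3D-culture had 21 ± 0.465 of Adamts5, 14.1 ± 0.572 of Adamts1 and 9.76 ± 1.43 of Adamts2 (SD, n = 3 each). Hearts and cultures were scaled in separate tables, so levels between them were not tested.

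**Figure D1:**
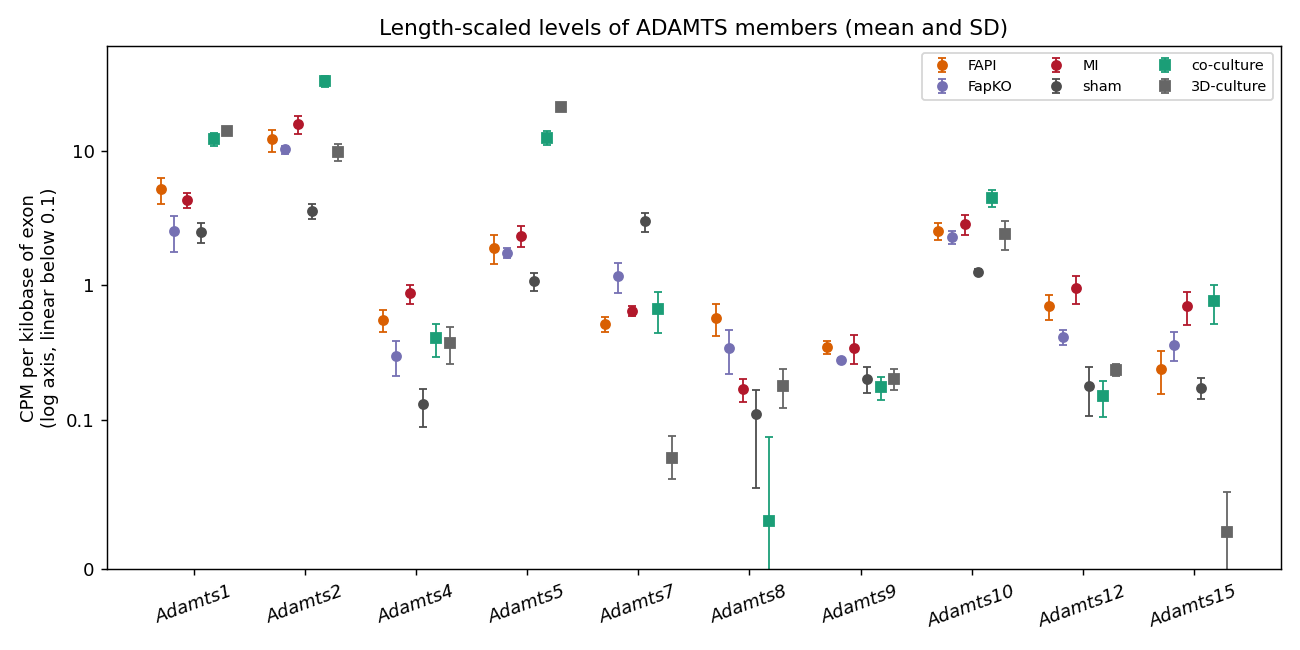
Mean level of each ADAMTS member in CPM per kilobase of exon (y axis, logarithmic above 0.1 and linear below), with SD bars, for FAPI, FapKO, MI and sham hearts (circles, n = 4, 4, 4 and 3) and co-culture and 3D-culture fibroblasts (squares, n = 3 each). Adamts2 lies highest in every heart group, Adamts7 is the only member whose sham mean lies above its MI mean, and Adamts15 and Adamts7 show the widest gap between the cultures.

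Between MI and sham hearts 9 of the 10 members differed, as did 11783 of all 17064 genes tested. By the quasi-likelihood test of edgeR, with p-values adjusted by Benjamini-Hochberg over 17064 genes, 8 members were higher and 1 was lower in MI than in sham hearts at an adjusted p of at most 0.05, against 37.1% of all genes tested that were higher and 32.0% that were lower. The members' median LFC was 1.15, against 0.14 over all genes. MI and sham libraries did not overlap for 8 members, against 67.5% of all genes, and the same count was 4 for FAPI against MI (26.1% of all genes) and 5 for FapKO against MI (45.4%). Treatment with FAPI after infarction left 1 member higher and 3 lower than in MI hearts, where 17.9% and 11.9% of all genes tested were higher and lower. In FapKO hearts 2 members were higher and 7 lower than in MI hearts, against 25.0% and 26.0% of all genes. The members' median LFC was -0.32 for FAPI against MI and -0.53 for FapKO against MI, with medians of -0.03 and -0.08 over all genes. Both comparisons use the same MI hearts. FAPI hearts themselves had 3 members higher and 1 lower than FapKO hearts, against 7.05% and 6.12% of all genes. Against sham, 8 members were higher and 1 lower in FAPI hearts (29.2% and 26.5% of all genes), and 7 were higher and 1 lower in FapKO hearts (19.2% and 20.3% of all genes). Groups did not overlap for 9 members in FAPI against sham (57.5% of all genes), 9 in FapKO against sham (46.8%) and 5 in FAPI against FapKO (18.6%). When the cardiomyocyte marker level of each heart was added as a covariate, none of the 8 higher members passed in MI against sham, and no member passed in FAPI or FapKO against MI. That level separated MI hearts from each of the other groups without overlap. It also separated sham hearts (mean log2 CPM 11.26 to 11.4) from FAPI hearts (9.661 to 10.47) and FapKO hearts (10.45 to 10.75). In all those comparisons the group and the share of cardiomyocyte RNA cannot be told apart. Only FAPI and FapKO hearts overlapped, and narrowly.

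**Figure D2:**
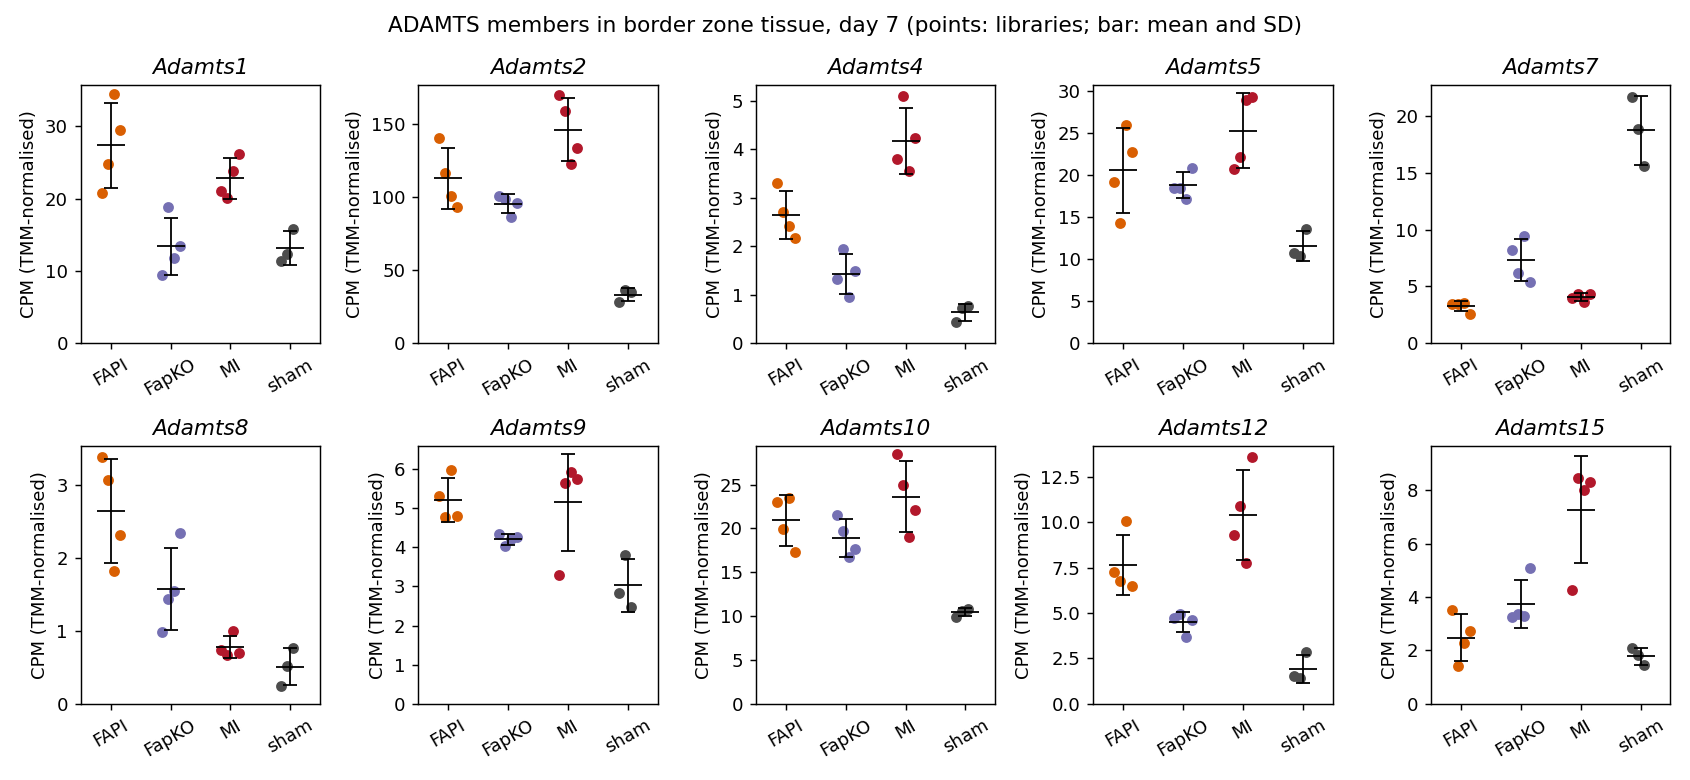
TMM-normalised CPM of the 10 members (y axes, each from 0) in border zone tissue at day 7, with 1 point per library and the mean and SD, for FAPI (n = 4), FapKO (n = 4), MI (n = 4) and sham (n = 3). The 4 MI points lie above the 3 sham points for Adamts1, Adamts2, Adamts4, Adamts5, Adamts10, Adamts12 and Adamts15, all sham points lie above the rest for Adamts7, and Adamts8 is highest in FAPI hearts by its mean.

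**Figure D3:**
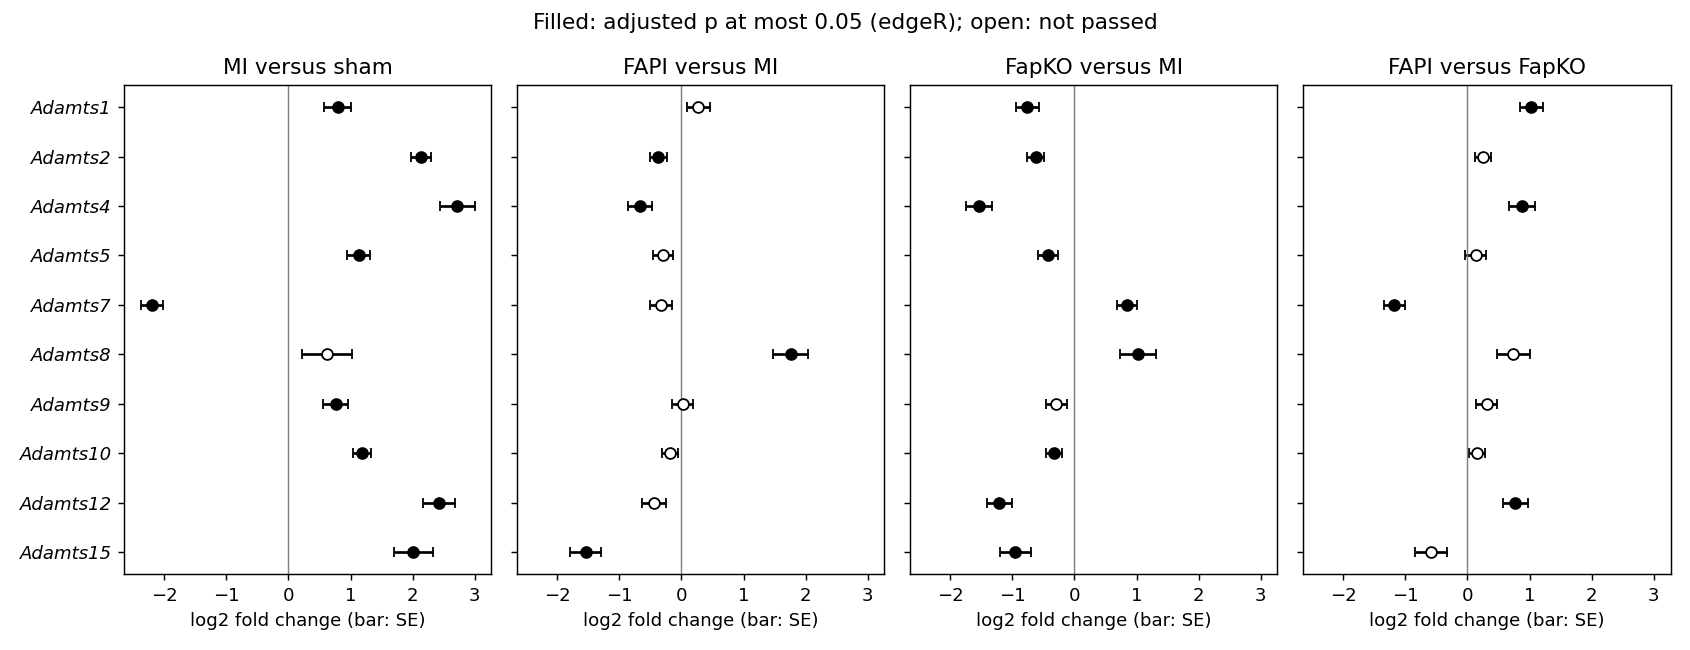
Log2 fold changes (LFC) of the 10 members (x axis, bar: SE) in MI against sham, FAPI against MI, FapKO against MI and FAPI against FapKO, from 1 edgeR fit over 15 heart libraries; filled points passed an adjusted p of 0.05. In the first panel 9 points are filled and Adamts7 alone lies left of 0, at -2.20, and in the next panels, for FAPI and FapKO against MI, Adamts8 lies right of 0, at 1.76 and 1.02.

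Among the proteoglycanases, Adamts4 had the largest rise with infarction. Adamts4 (aggrecanase 1, chr1:171250421-171260637, plus strand) had 3.31, 2.70, 2.42 and 2.17 CPM in FAPI hearts, 1.33, 1.94, 0.958 and 1.48 CPM in FapKO hearts, 3.81, 5.10, 3.55 and 4.24 CPM in MI hearts and 0.431, 0.719 and 0.758 CPM in sham hearts. The 4 groups formed steps with no overlap between any of them: MI highest, then FAPI, then FapKO, then sham. MI hearts were 6.58-fold higher than sham hearts (LFC 2.72, SE 0.280, edgeR adjusted p = 2.93e-07). FAPI hearts fell to 2.65 ± 0.491 CPM, against 4.17 ± 0.683 CPM in MI hearts (SD, n = 4 each), with a LFC of -0.66 (SE 0.194, edgeR adjusted p = 0.0173). That call was not kept without MI replicate 2 (LFC -0.55) or without FAPI replicate 4 (-0.57). FapKO hearts fell further, to 1.43 ± 0.407 CPM (n = 4; LFC against MI -1.54, SE 0.207, edgeR adjusted p = 1.66e-05), and the direct comparison put FAPI above FapKO hearts by a LFC of 0.88 (SE 0.210, edgeR adjusted p = 0.0121). Against sham, Adamts4 stayed higher in FAPI hearts (LFC 2.06, SE 0.285) and in FapKO hearts (1.18, SE 0.30).

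Adamts1 was the member with the highest LFC between FAPI and FapKO hearts. Adamts1 (a versican-cleaving protease also known as an inhibitor of vessel growth, chr16:85793827-85803113, minus strand) had 20.8, 24.8, 34.5 and 29.5 CPM in FAPI hearts, 9.49, 18.8, 11.8 and 13.5 CPM in FapKO hearts, 21, 20.1, 23.9 and 26.2 CPM in MI hearts and 11.4, 12.3 and 15.8 CPM in sham hearts. FAPI hearts overlapped the MI range and reached above it, whereas FapKO hearts covered the sham range. MI hearts were 1.73-fold higher than sham hearts (LFC 0.79, SE 0.211, edgeR adjusted p = 0.00321). FapKO hearts were lower than MI hearts (LFC -0.76, SE 0.189, edgeR adjusted p = 0.00298) and did not pass against sham (0.03, 95% interval -0.38 to 0.44, edgeR adjusted p = 0.920), except with total-count scaling (0.57). FAPI and MI hearts did not pass either (0.27, 95% interval -0.10 to 0.63, edgeR adjusted p = 0.30), and that value was -0.15 with total-count scaling. In the direct test FAPI hearts were 2.04-fold higher than FapKO hearts (LFC 1.03, SE 0.189, edgeR adjusted p = 0.00234).

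Adamts5 (aggrecanase 2, chr16:85856173-85901828, minus strand) is the protein-coding neighbour of Adamts1, 53.1 kb away on the same strand with no other protein-coding gene between. It had 19.2, 14.3, 26.0 and 22.7 CPM in FAPI hearts, 18.5, 18.5, 17.2 and 20.9 CPM in FapKO hearts, 20.7, 22.2, 28.9 and 29.3 CPM in MI hearts and 10.7, 10.4 and 13.6 CPM in sham hearts. All 12 infarcted hearts lay above the sham hearts, and the 3 infarcted groups overlapped. MI hearts rose 2.18-fold over sham (LFC 1.13, SE 0.186, edgeR adjusted p = 5.08e-05). FapKO hearts were lower than MI hearts by a small margin (LFC -0.43, SE 0.162, edgeR adjusted p = 0.0373). This did not pass without MI replicate 3 (-0.36) or 4 (-0.35), or without FapKO replicate 1 (-0.42), 2 (-0.42) or 3 (-0.39). FAPI against MI gave -0.30 (95% interval -0.61 to 0.02, edgeR adjusted p = 0.180) and passed with total-count scaling (-0.70). The neighbours therefore had different contrasts between FAPI and FapKO hearts, 1.03 for Adamts1 and 0.13 (SE 0.163) for Adamts5, a difference between genes that was not itself tested. Per unit of exon length, the ratio of Adamts1 to Adamts5 was 2.77 ± 0.552 in FAPI hearts, 1.45 ± 0.432 in FapKO hearts, 1.85 ± 0.159 in MI hearts and 2.31 ± 0.128 in sham hearts (SD, n = 4, 4, 4 and 3). The FAPI range, 2.21 to 3.53, lay above the MI range of 1.68 to 2.07 and the FapKO range of 1.04 to 2.06, and overlapped the sham range of 2.16 to 2.41.

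The second neighbouring pair, Adamts8 and Adamts15, moved in opposite directions when either Fap group was set against MI. The genes lie 20.1 kb apart on opposite strands with no protein-coding gene between. Adamts15 (a proteoglycanase, chr9:30899155-30922452, minus strand) had 3.51, 1.42, 2.27 and 2.74 CPM in FAPI hearts, 3.26, 3.37, 3.28 and 5.11 CPM in FapKO hearts, 4.27, 8.48, 8.03 and 8.32 CPM in MI hearts and 2.09, 1.83 and 1.45 CPM in sham hearts. Of the MI hearts 3 stood together above 8 CPM and replicate 1 stood apart, within the FapKO range. Adamts15 was 4.04-fold higher in MI than in sham hearts (LFC 2.01, SE 0.311, edgeR adjusted p = 2.52e-05). It fell in FAPI hearts to 2.49 ± 0.875 CPM, against 7.28 ± 2.01 CPM in MI hearts (SD, n = 4 each; LFC -1.54, SE 0.252, edgeR adjusted p = 0.000407), and in FapKO hearts to 3.76 ± 0.903 CPM (n = 4; -0.95, SE 0.246, edgeR adjusted p = 0.00412). FAPI hearts overlapped sham hearts and did not pass against them (0.47, 95% interval -0.16 to 1.10, edgeR adjusted p = 0.224), except with total-count scaling (1.16). FapKO hearts were higher than sham hearts (1.06, SE 0.318, edgeR adjusted p = 0.0148), a call not kept without sham replicate 3 (0.94).

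Adamts8 (a proteoglycanase that, like Adamts1, is known as an inhibitor of vessel growth, chr9:30942562-30963838, plus strand) had 3.38, 3.07, 1.82 and 2.31 CPM in FAPI hearts, 0.987, 1.43, 1.55 and 2.34 CPM in FapKO hearts, 0.743, 0.670, 0.996 and 0.694 CPM in MI hearts and 0.246, 0.523 and 0.758 CPM in sham hearts. These are low levels: the 4 MI libraries together held 100 counts and the 3 sham libraries 23. FAPI hearts lay above every MI and sham heart, FapKO hearts overlapped both FAPI and MI hearts, and MI and sham hearts overlapped. Adamts8 was the member that infarction alone did not change beyond the spread (LFC for MI against sham 0.62, 95% interval -0.17 to 1.41, edgeR adjusted p = 0.180), although total-count scaling gave 1.68 and passed. It rose 3.38-fold in FAPI against MI hearts (LFC 1.76, SE 0.280, edgeR adjusted p = 0.000357) and 2.03-fold in FapKO against MI hearts (1.02, SE 0.290, edgeR adjusted p = 0.00771). The FapKO call was not kept with total-count scaling (0.49). Against sham, LFC were 2.38 (SE 0.371) in FAPI hearts and 1.64 (SE 0.385) in FapKO hearts, both past the edgeR threshold with adjusted p = 5.65e-05 and 0.00342. FAPI and FapKO hearts differed by 0.74 (95% interval 0.22 to 1.26), which did not pass over all libraries (edgeR adjusted p = 0.0761) and passed without FapKO replicate 4 (0.98), without the count filter (0.74, edgeR adjusted p = 0.0428) and with total-count scaling (0.87, edgeR adjusted p = 0.0499). Per unit of exon length, the ratio of Adamts8 to Adamts15 was 2.67 ± 1.45 in FAPI hearts, 0.930 ± 0.173 in FapKO hearts, 0.259 ± 0.0992 in MI hearts and 0.694 ± 0.458 in sham hearts (SD, n = 4, 4, 4 and 3). Per kilobase, the order of the pair was thus turned in FAPI hearts, where every library had more Adamts8 than Adamts15 (1.80 to 4.84). In MI hearts every library had less (0.178 to 0.391). The turn rests on the length scaling. Without it, FAPI hearts averaged 2.64 ± 0.707 CPM of Adamts8 and 2.49 ± 0.875 CPM of Adamts15 (SD, n = 4), within their spread of each other.

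**Figure D4:**
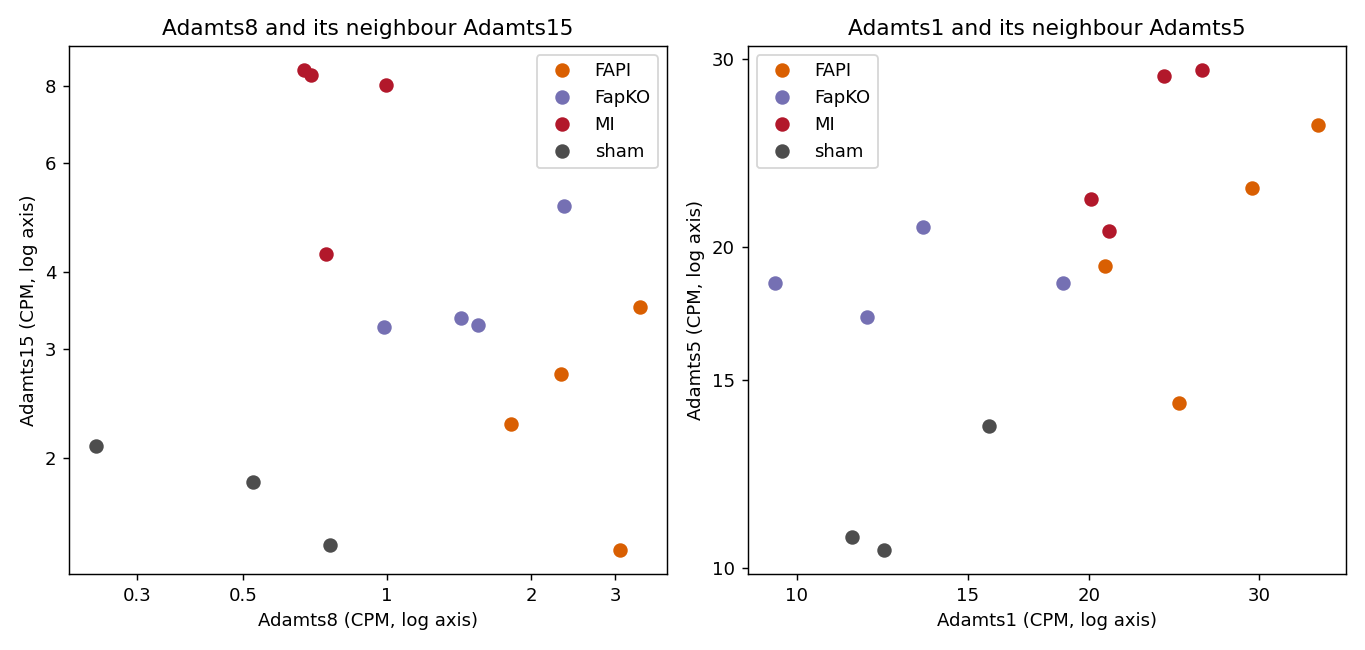
Levels of the neighbouring members in each of 15 heart libraries, in CPM on logarithmic axes, with Adamts8 against Adamts15 on the left and Adamts1 against Adamts5 on the right, and points coloured as FAPI, FapKO, MI and sham. On the left the MI hearts lie high on Adamts15 and low on Adamts8 and the FAPI hearts lie low on Adamts15 and high on Adamts8; on the right FapKO hearts, at 9.49 to 18.8 CPM of Adamts1, lie left of the FAPI and MI hearts, and their Adamts5 levels of 17.2 to 20.9 CPM lie within the FAPI range and in the lower part of the range of all infarcted hearts.

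Adamts9 (a proteoglycanase, chr6:92772699-92943492, minus strand) passed in no comparison among the infarcted groups. It had 5.31, 4.78, 5.98 and 4.79 CPM in FAPI hearts, 4.34, 4.02, 4.20 and 4.25 CPM in FapKO hearts, 3.28, 5.65, 5.91 and 5.74 CPM in MI hearts and 2.83, 3.79 and 2.48 CPM in sham hearts. MI replicate 1 lay inside the sham range. MI hearts were 1.69-fold higher than sham hearts (LFC 0.76, SE 0.197, edgeR adjusted p = 0.00276). FAPI against MI gave 0.02 (95% interval -0.30 to 0.34), which turned to -0.39 with total-count scaling, and FapKO against MI gave -0.29 (95% interval -0.62 to 0.04). The FapKO value passed without MI replicate 1 (-0.46) and with total-count scaling (-0.84). FapKO against sham, at 0.47 (SE 0.200, edgeR adjusted p = 0.0737), passed without sham replicate 2 (0.66), with only these 2 groups in the fit (0.52) and with total-count scaling (1.01). Its exons overlap opposite-strand genes, of which none with shared exon bases reached more than 15 counts in any library.

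Adamts2, the procollagen N-proteinase (chr11:50602084-50807573, plus strand), rose 4.42-fold with infarction. It had 141, 117, 101 and 93.5 CPM in FAPI hearts, 101, 98.6, 86.2 and 96.0 CPM in FapKO hearts, 170, 159, 123 and 134 CPM in MI hearts and 28.2, 36.3 and 34.9 CPM in sham hearts. FapKO hearts lay below all MI hearts, FAPI hearts overlapped both, and all infarcted hearts lay above sham. The LFC of MI against sham was 2.14 (SE 0.159, edgeR adjusted p = 1.03e-08) and that of FapKO against MI was -0.62 (SE 0.136, edgeR adjusted p = 0.00125). FAPI against MI was at the threshold, with -0.37 (SE 0.136, edgeR adjusted p = 0.0490). It was not kept without MI replicate 1 (-0.29), 2 (-0.33) or 4 (-0.41), or without FAPI replicate 2 (-0.40), 3 (-0.32) or 4 (-0.29), and not with DESeq2's size factors (-0.36), without the count filter (-0.36) or with only these 2 groups in the fit (-0.41). Against sham the gene stayed higher in FAPI hearts (1.77, SE 0.157) and FapKO hearts (1.53, SE 0.155).

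Adamts7 and Adamts12, which share a domain plan and a substrate, went in opposite directions in every heart comparison but FAPI against MI. There both LFC were negative (-0.33 and -0.44) and neither passed. Adamts7 (chr9:90163069-90208071, plus strand) had 3.48, 3.40, 3.50 and 2.60 CPM in FAPI hearts, 8.24, 6.20, 9.43 and 5.42 CPM in FapKO hearts, 3.96, 4.36, 3.61 and 4.35 CPM in MI hearts and 21.7, 18.9 and 15.6 CPM in sham hearts. The 4 groups did not overlap, with sham highest, then FapKO, then MI and then FAPI. Adamts7 was 4.60-fold lower in MI than in sham hearts (LFC -2.20, SE 0.174, edgeR adjusted p = 1.86e-08). It was the only member whose call in this comparison was kept with the cardiomyocyte covariate, at -2.49. FapKO hearts were 1.80-fold higher than MI hearts (0.85, SE 0.165, edgeR adjusted p = 0.000460), which did not pass with total-count scaling (0.28). FAPI against MI gave -0.33 and did not pass (95% interval -0.66 to 0.00, edgeR adjusted p = 0.157) although the 2 groups did not overlap, and passed with total-count scaling (-0.74). The direct test put FAPI hearts 2.26-fold below FapKO hearts (-1.18, SE 0.168, edgeR adjusted p = 0.000323). Against sham, the LFC was -2.53 (SE 0.177) in FAPI hearts and -1.36 (SE 0.170) in FapKO hearts. Adamts7 exons share 122 bases with the opposite-strand gene Tbc1d2b, which had 5.73 ± 1.01 CPM in FAPI hearts, 4.50 ± 0.762 in FapKO hearts, 9.23 ± 1.40 in MI hearts and 2.80 ± 0.558 in sham hearts (SD, n = 4, 4, 4 and 3).

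Adamts12 (chr15:11064790-11349231, plus strand) had 7.24, 6.76, 10.1 and 6.47 CPM in FAPI hearts, 4.72, 4.94, 3.68 and 4.60 CPM in FapKO hearts, 9.31, 10.9, 7.78 and 13.6 CPM in MI hearts and 1.54, 1.44 and 2.83 CPM in sham hearts. FapKO hearts formed a separate band between sham and the other infarcted hearts, and FAPI and MI hearts overlapped. MI hearts were 5.39-fold higher than sham hearts (LFC 2.43, SE 0.256, edgeR adjusted p = 3.72e-07) and FapKO hearts were 2.31-fold lower than MI hearts (-1.21, SE 0.198, edgeR adjusted p = 0.000105). FAPI against MI gave -0.44 (SE 0.191, edgeR adjusted p = 0.0923), which passed without MI replicate 3 (-0.56), without FAPI replicate 3 (-0.61) and with total-count scaling (-0.86). FAPI hearts were higher than FapKO hearts (0.77, SE 0.199, edgeR adjusted p = 0.0187), which was not kept without FAPI replicate 3 (0.60) or FapKO replicate 3 (0.68).

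Adamts10, the microfibril-binding member (chr17:33524204-33553782, plus strand), had 23.0, 19.9, 23.5 and 17.3 CPM in FAPI hearts, 21.5, 19.7, 16.7 and 17.7 CPM in FapKO hearts, 28.5, 24.9, 19.0 and 22.1 CPM in MI hearts and 9.92, 10.6 and 10.8 CPM in sham hearts. All infarcted hearts lay above sham and the 3 infarcted groups overlapped. It was 2.27-fold higher in MI than in sham hearts (LFC 1.18, SE 0.147, edgeR adjusted p = 2.45e-06). FapKO against MI passed by a narrow margin (-0.33, SE 0.128, edgeR adjusted p = 0.0428). It was not kept without MI replicate 1 (-0.23) or 2 (-0.30), without FapKO replicate 2 (-0.35), 3 (-0.27) or 4 (-0.30), in DESeq2 (-0.30) or with its size factors (-0.30), without the count filter (-0.33) or with only these 2 groups in the fit (-0.33). FAPI against MI did not pass (-0.18, 95% interval -0.43 to 0.07, edgeR adjusted p = 0.309), except with total-count scaling (-0.59).

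In cultured fibroblasts Adamts2, Adamts7, Adamts10 and Adamts15 were higher in co-culture and Adamts5 was lower. Of the 9 members tested, 4 were higher and 1 was lower in co-culture than in 3D-culture, against 30.3% and 29.5% of the 12293 genes tested, and 7 did not overlap between the groups, against 67.0% of all genes. The median LFC was 0.10 over the 9 members and -0.06 over all genes. Adamts2 had 287, 296 and 340 CPM in co-culture, against 82.9, 106 and 83.9 CPM in 3D-culture, a 3.38-fold rise (LFC 1.76, SE 0.136, edgeR adjusted p = 1.16e-05). Adamts10 had 40.7, 39.3 and 30.4 CPM in co-culture, against 16.3, 25.2 and 18.0 CPM in 3D-culture (0.89, SE 0.194, edgeR adjusted p = 0.00377). Neither gene overlapped between the groups. Both were among the 8 members that were higher in MI than in sham hearts, as was Adamts15. Adamts5 was also higher in MI hearts but lower in co-culture, and Adamts7 was the reverse.

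Adamts7 and Adamts15 were nearly silent in fibroblasts grown alone. Adamts7 had 3.39, 5.81 and 3.32 CPM in co-culture, against 0.472, 0.557 and 0.376 CPM in 3D-culture, an 8.82-fold rise (LFC 3.14, SE 0.365, edgeR adjusted p = 0.000108). Adamts15 had 24, 32 and 61 counts (5.82, 7.15 and 10.7 CPM) in co-culture, against 0, 7 and 4 counts (0, 0.557 and 0.215 CPM) in 3D-culture, although the 3D-culture libraries were the deeper ones. Its fitted LFC was 5.03 (SE 0.598, edgeR adjusted p = 0.000122). For both genes every co-culture library lay above every 3D-culture library. Tbc1d2b, which shares exon bases with Adamts7, was also higher in co-culture, at 15.6 ± 2.38 CPM, against 4.16 ± 0.354 CPM in 3D-culture (SD, n = 3 each).

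Adamts5 went the other way and fell to 155, 125 and 126 CPM in co-culture, against 224, 222 and 232 CPM in 3D-culture (LFC -0.74, SE 0.117, edgeR adjusted p = 0.000631). Its neighbour Adamts1 had 70.1, 56.1 and 67.2 CPM in co-culture, against 72.7, 73.6 and 78.3 CPM in 3D-culture, and did not pass (-0.22, 95% interval -0.45 to 0.02, edgeR adjusted p = 0.148). With total-count scaling Adamts1 passed at -0.56. Adamts8 was too low for the test, with 0, 2 and 0 counts in co-culture, against 12, 8 and 21 counts in 3D-culture. Without the filter on low counts it passed as lower (edgeR adjusted p = 0.0197, with a range of 0.0172 to 0.147 over the fits that kept it). Adamts8 and Adamts15 thus stood in opposite order: Adamts8 was seen mainly in 3D-culture and Adamts15 almost only in co-culture.

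The other 3 members did not pass in the cultures. Adamts4 had 1.94, 2.46 and 1.40 CPM in co-culture, against 1.30, 2.39 and 1.72 CPM in 3D-culture (LFC 0.10, 95% interval -0.63 to 0.82), and turned to -0.23 with total-count scaling. Adamts9 had 2.67, 3.13 and 2.10 CPM in co-culture, against 2.48, 3.58 and 3.06 CPM in 3D-culture (-0.22, 95% interval -0.78 to 0.35). Adamts12 had 1.70, 1.12 and 2.10 CPM in co-culture, against 2.42, 2.39 and 2.85 CPM in 3D-culture (-0.62, edgeR adjusted p = 0.116), and passed with total-count scaling (-0.97). Counting limits these 3: their summed counts over the co-culture libraries were 27, 37 and 24. The fibroblast marker sum was 9232 to 10474 CPM in co-culture, against 1905 to 2096 CPM in 3D-culture, with all 7 genes higher. The macrophage marker sum was 64.6 to 86.1 CPM in co-culture, against 221 to 290 CPM in 3D-culture, with all 8 genes lower. Endothelial markers summed to 19.2 to 22.9 CPM in co-culture, with Erg at 0, against 16.5 to 18.3 CPM in 3D-culture. The part of these differences in cell makeup in the ADAMTS values was not tested.

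**Figure D5:**
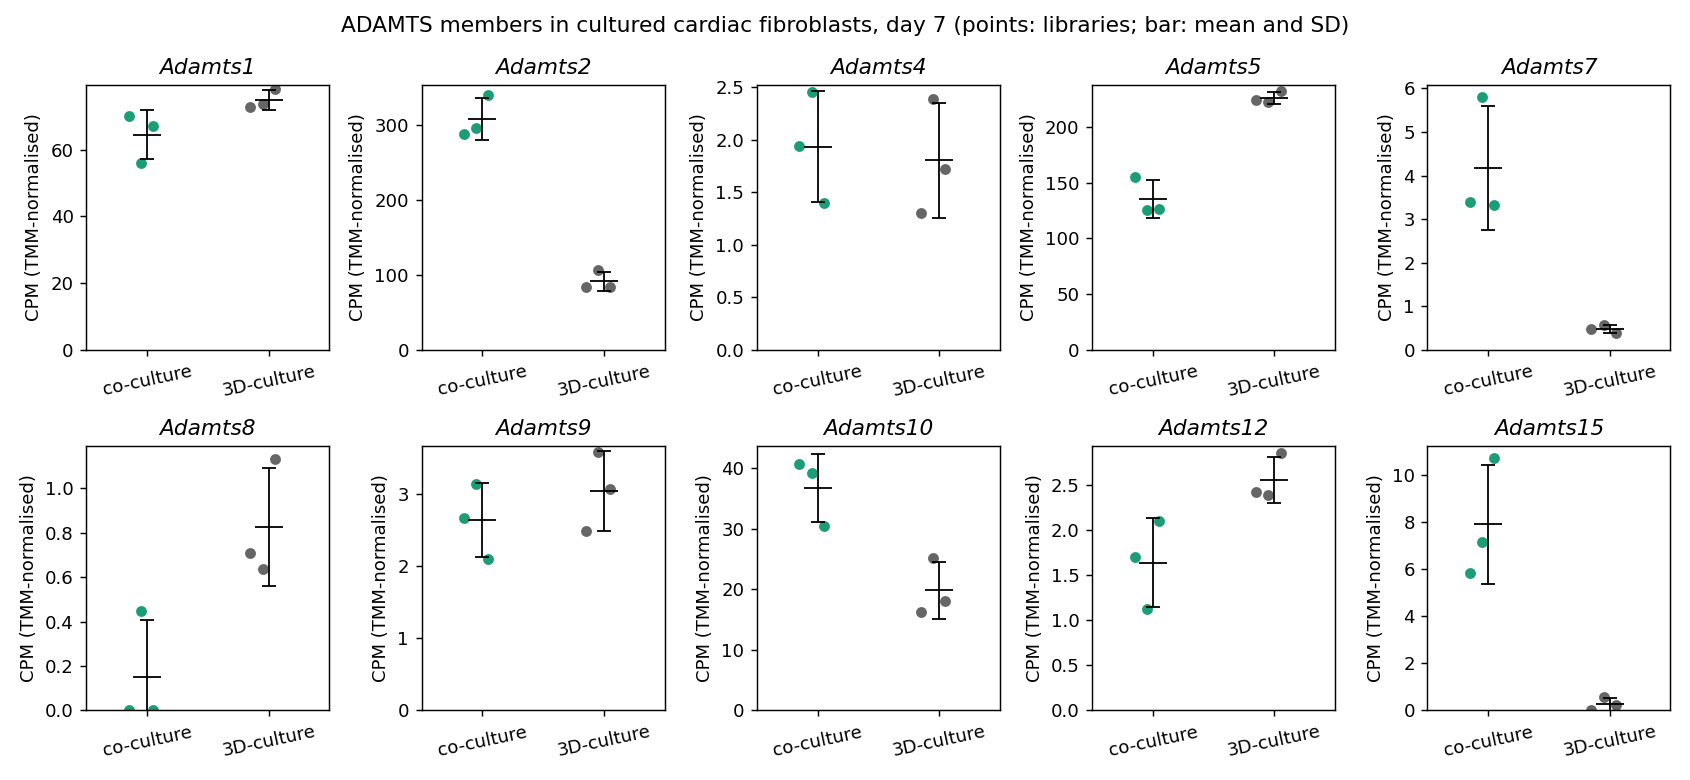
TMM-normalised CPM of the 10 members (y axes, each from 0) in cultured cardiac fibroblasts, with 1 point per library and the mean and SD, for co-culture and 3D-culture (n = 3 each). The groups are apart for Adamts2, Adamts7, Adamts10 and Adamts15, which lie higher in co-culture, and for Adamts1, Adamts5 and Adamts12, which lie lower, of which Adamts5 alone passed the test; Adamts4 and Adamts9 overlap.

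Genes for the proteins that ADAMTS enzymes cut were also higher in infarcted hearts. Of 10 listed substrates 8 were tested, and all 8 were higher in MI than in sham hearts, with a median LFC of 2.62, against 37.1% of all genes higher. With the cardiomyocyte covariate 3 of the 8 passed (Col3a1, Fbn1 and Fbn2), and none passed in FapKO or FAPI against MI. The proteoglycan versican (Vcan) rose by 1.79 (SE 0.247, edgeR adjusted p = 7.45e-06) and aggrecan (Acan) by 2.93 (SE 0.558, edgeR adjusted p = 0.000205). Among the fibril proteins, collagens Col1a1 and Col3a1 had LFC of 2.68 and 2.62, the Adamts7 and Adamts12 substrate Comp 2.61 and fibrillin Fbn1 2.24. In FapKO against MI hearts 7 of the 8 were lower, with a median of -1.0 (26.0% of all genes were lower), and in FAPI against MI hearts 4 were lower, with a median of -0.68 (11.9% of all genes). Versican was the substrate that passed in neither: it averaged 21.2 ± 3.65 CPM in FAPI hearts, 16.9 ± 1.63 in FapKO hearts, 19.8 ± 6.89 in MI hearts and 5.75 ± 1.35 in sham hearts (SD, n = 4, 4, 4 and 3). Aggrecan averaged 5.90 ± 2.64 CPM in FAPI hearts, 2.13 ± 1.06 in FapKO hearts, 10.2 ± 5.28 in MI hearts and 1.35 ± 0.703 in sham hearts, and against MI passed in FapKO hearts (LFC -2.26, SE 0.441, edgeR adjusted p = 0.000467). Of the procollagens that Adamts2 trims, Col1a1 was lower in both Fap groups, at -0.89 (SE 0.243) in FAPI and -1.46 (SE 0.246) in FapKO against MI hearts. In the cultures 1 of 6 tested substrates was higher and 2 were lower (30.3% and 29.5% of all genes). Vcan fell to 9.74 ± 1.20 CPM in co-culture, against 18.9 ± 3.36 CPM in 3D-culture (SD, n = 3 each; LFC -0.97, SE 0.185, edgeR adjusted p = 0.00193), and Fbn2 rose by 2.29 (SE 0.353).

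Inhibitors, activating convertases, cofactors and uptake receptors were listed as 12 regulators, all tested in both experiments. In MI against sham hearts 10 were higher and 2 were lower, against 37.1% and 32.0% of all genes, and with the cardiomyocyte covariate 4 were higher and none lower. The inhibitor Timp1 rose by 2.71 (SE 0.183), the uptake receptor Lrp1 by 1.96 (SE 0.107) and Timp3 by 1.10 (SE 0.186), whereas Timp4 fell to 4.24 ± 1.24 CPM in MI hearts, against 71.5 ± 15.6 CPM in sham hearts (SD, n = 4 and 3; LFC -4.08, SE 0.294, edgeR adjusted p = 7.91e-09). Timp4 thus stood with Adamts7 as a gene that was higher in sham. It was at 15.4 ± 6.64 CPM in FAPI hearts and 34.1 ± 4.27 CPM in FapKO hearts (SD, n = 4 each), with LFC against MI of 1.87 (SE 0.270) and 3.01 (SE 0.276), both past the edgeR threshold. In FapKO against MI hearts 8 regulators were lower and 2 higher (26.0% and 25.0% of all genes), and in FAPI against MI hearts 5 were lower and 1 higher (11.9% and 17.9%). None passed in these comparisons with that covariate. Timp3 was lower in FapKO hearts (-0.54, SE 0.165, edgeR adjusted p = 0.0123) and not past the threshold in FAPI hearts (-0.29, SE 0.164). In the cultures 3 regulators were higher and 3 lower, near the shares of all genes (30.3% and 29.5%). Timp4 had 36.8 ± 2.46 CPM in co-culture, against 2.19 ± 0.248 CPM in 3D-culture (LFC 4.07, SE 0.159), fibulin Fbln1, a cofactor of Adamts1, had 211 ± 17.2 CPM in co-culture, against 25.5 ± 4.44 CPM in 3D-culture (3.05, SE 0.152), and Timp3 had 40.9 ± 2.47 CPM in co-culture, against 121 ± 19.8 CPM in 3D-culture (-1.56, SE 0.145; SD, n = 3 each). Timp4 and Adamts7 were higher together in co-culture as they were in sham hearts. They parted in FAPI against MI hearts, where the LFC was 1.87 for Timp4 and -0.33 for Adamts7, which did not pass.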

How the data were processed

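RNA-seq was run on 15 heart libraries and 6 fibroblast libraries. The deposited files hold raw counts per Ensembl gene. Libraries followed a modified Smart-seq2 protocol with UMI barcodes, per the labels. Per the submitters' processing notes, STAR, HTSeq and the mm10 build were used; no version or strand setting was given in those notes. Of 53801 identifiers 53620 had a symbol, and no row lacked a gene. A series-wide table with 6 columns that match no label was not used.

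Groups came from the labels. Hearts and cultures were fitted apart with edgeR 4.0.16 in R 4.3.3 (filterByExpr, TMM, quasi-likelihood F test), a coefficient per group, and Benjamini-Hochberg adjustment over all 17064 and 12293 genes kept, at a threshold of 0.05. All 10 members passed the filter in hearts and 9 in cultures. The edgeR steps were also run on data simulated from FapKO and MI hearts alone and from the cultures. The fit over all heart groups was not simulated, and no outcome is given here. Log2 fold changes are those of edgeR; 95% intervals come from the SE and a normal distribution. Length scaling and coordinates used GENCODE M21. No pair of replicates was a copy: chi-square per degree of freedom was at least 3.35. Alternatives were DESeq2 1.42.0, size factors, total-count scaling, no filter, a replicate block, only the compared groups, a cardiomyocyte covariate and each library left out.

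All 10 members are named in every comparison. From other lists, the 3 genes with the smallest p in MI against sham and in the cultures are named, plus substrates, Timp3 and Lrp1. Tbc1d2b was added after its overlap with Adamts7 was seen. Without a stated strand setting, reads from exon bases that a member shares with another gene cannot be assigned. A further result is not reported here. The members and lists were chosen with earlier results of these data known.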

Additional observations from a re-analysis of the deposited data

Results flagged for a closer look

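In 4 of 30 member-by-group sets of 4 hearts, 1 library stood far from the other 3 by Dixon's criterion, which chance meets in about 1 set in 20. For Adamts7 this was FAPI replicate 4, at 2.60 CPM, below the other FAPI hearts. For Adamts9 and Adamts15 it was MI replicate 1, at 3.28 and 4.27 CPM, below the other MI hearts in both genes. Adamts15 in FapKO replicate 4, at 5.11 CPM, lay above the other FapKO hearts.

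The effects of FAPI and of FapKO, each against the same MI hearts, differed for 4 members by the direct FAPI against FapKO test. The log2 difference was 1.03 for Adamts1, 0.88 for Adamts4 and 0.77 for Adamts12, which were higher in FAPI hearts, and -1.18 for Adamts7, which was lower. Adamts1 and Adamts7 kept this call in every alternative run. Of 4 FAPI and 4 FapKO hearts, none overlapped in these 4 genes.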

How the results depend on the processing

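Of 969 alternative values for 69 member results, 876 kept their side of the threshold with no change of sign at 2 decimals, 52 lost the threshold, 19 gained it and 22 turned round. Of those 22, 4 were calls, 18 had not passed, and none passed after turning. With the cardiomyocyte covariate, called members that turned round were Adamts10 in MI against sham (-0.06), Adamts2 in FAPI against MI (0.17), and Adamts2 (0.10) and Adamts10 (0.60) in FapKO against MI. Members not called turned in FAPI against MI (Adamts9 -0.16, Adamts10 0.52, Adamts12 0.34) and FAPI against FapKO (Adamts10 -0.08). Other genes turned in MI against sham (Acan -0.21, Adamtsl3 -0.72, Adamtsl5 1.69, Timp3 -0.18), in FAPI against MI (Fap 0.16, Acan 0.95, Adamts14 0.32, Adamts16 0.88, Adamts6 0.06, Adamtsl3 0.65, Adamtsl5 -0.38, Col1a2 0.01, Comp 0.02, Fbn1 0.16, Timp3 0.43), in FapKO against MI (Acan 0.06, Adamts16 0.24, Adamtsl3 0.51, Adamtsl5 -0.57, Timp3 0.41, Vcan 0.01), in FAPI against sham (Adamtsl3 -0.07), in FapKO against sham (Acan -0.15, Adamtsl3 -0.20) and in FAPI against FapKO (Adamtsl5 0.19). Of these, Adamtsl5 in MI against sham passed after turning. The cause was not tested. That covariate left 0 members higher in MI against sham, 0 higher and 0 lower in FAPI and in FapKO against MI, and 1 higher in FAPI against FapKO. It also ended the calls of Adamts4 (0.69) and Adamts12 (0.51) in FAPI against FapKO, Adamts10 (0.46) in FAPI against sham, and Adamts4 (0.89) and Adamts15 (1.09) in FapKO against sham. With it, calls over all genes were 514, against 11783 without it, in MI against sham, 22 against 5081 in FAPI against MI, 87 against 8700 in FapKO against MI, 3936 against 9517 in FAPI against sham, 3710 against 6740 in FapKO against sham and 1169 against 2247 in FAPI against FapKO.

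Total-count scaling gave 7 members lower in FAPI against MI, where 9933 of all 17064 genes were called and 8485 were lower. In FapKO against MI it gave 0 members higher and 8 lower, with 2076 of all genes higher and 10455 lower. In co-culture it gave 3 of the 9 members lower, with 5162 of all 12293 genes lower. It turned round Adamtsl5 in MI against sham (0.68, now past the threshold), Adamts1 (-0.15), Adamts9 (-0.39) and Vcan (-0.32) in FAPI against MI, and Adamts4 (-0.23), Col1a2 (-0.21), Lrp1 (-0.07) and Timp1 (-0.07) in co-culture. Adamts9 in FAPI against MI was -0.01 with only these groups fitted and -0.14 to 0.09 with 1 library left out. Adamts1 in FapKO against sham was -0.01 with DESeq2's size factors and with the replicate block, -0.02 in DESeq2 and -0.18 to 0.18 with 1 library left out. Left-out ranges also crossed 0 for Vcan in FAPI against MI (-0.07 to 0.32) and, in co-culture, for Adamts4 (-0.12 to 0.31) and Col1a1 (-1.08 to 0.42, past the threshold at 0.42 without 3D-culture replicate 2). No filter on low counts gave 2 lower in co-culture, the second being Adamts8. With 1 library left out, members higher numbered 8 in MI and in FAPI against sham, 1 in FAPI against MI, 2 in FapKO against MI, 6 to 8 in FapKO against sham, 2 to 4 in FAPI against FapKO and 4 in co-culture. Members lower numbered 1 in each comparison with sham and in FAPI against FapKO, 1 to 4 in FAPI against MI (1 without MI replicate 2 or FAPI replicate 4), 5 to 7 in FapKO against MI and 1 to 2 in co-culture (2 without co-culture replicate 2). Calls over all genes were 3359 for FAPI against MI without FAPI replicate 4. For FAPI against FapKO they were 1352 and 1197 without FAPI replicates 1 and 3, and 1430 and 1125 without FapKO replicates 1 and 3.

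Replicate numbers do not pair the libraries: deviations of same-numbered libraries correlated between -0.294 and 0.322 in hearts and -0.183 and 0.064 in cultures. With the replicate block all 69 member results kept their call, for example 8 members higher in MI against sham. Counts below about 30 per group, as for Adamts8 and Adamts4 in sham hearts and Adamts15 in 3D-culture, limit precision.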

Other observations

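Beyond the 10 members, 9 other ADAMTS genes were listed and 7 were tested in hearts. In MI against sham 5 were higher and 1 was lower, with a median log2 fold change of 1.37, against 37.1% and 32.0% of all genes. Adamts16 rose by 3.03 (SE 0.458, edgeR adjusted p = 1.99e-05), Adamts14, a second procollagen N-proteinase, by 2.72 (SE 0.489, edgeR adjusted p = 0.000118) and Adamts6 by 1.37 (SE 0.258, edgeR adjusted p = 0.000190). In FapKO against MI hearts 4 were lower (26.0% of all genes), among them these 3, at -1.73, -1.04 and -0.78, and the Adamts14 call was not kept without FapKO replicate 3. In FAPI against MI hearts 1 was lower (11.9% of all genes). With the cardiomyocyte covariate none of the 7 passed in these 3 comparisons. In cultures Adamts14 alone was tested and did not pass (0.79, SE 0.331).

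ADAMTS-like proteins carry the matrix-binding repeats without the catalytic domain. Of 6, 3 were higher and 2 lower in MI against sham hearts, against 37.1% and 32.0% of all genes. Adamtsl2, which binds fibrillin and latent TGF-beta binding protein, rose by 2.25 (SE 0.175, edgeR adjusted p = 1.62e-08) and Adamtsl1 by 2.11 (SE 0.264, edgeR adjusted p = 2.49e-06), whereas Papln was lower at -2.38 (SE 0.360) and Adamtsl4 at -0.72 (SE 0.106). In co-culture Adamtsl2 was higher by 2.05 (SE 0.182, edgeR adjusted p = 2.38e-05).

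The genes whose mean-centred log2 CPM lay nearest to a member over the 15 hearts, among 6835 or 6836 genes averaging at least 10 CPM, differed by member. For Adamts2 these were Clmp, Cercam and Emilin1, at root mean squared differences of 0.12, 0.13 and 0.14 log2 units, and for Adamts10 Lipa, Acvrl1 and Elk3, at 0.09, 0.12 and 0.13. Adamts12 lay nearest to Vgll3, Myof and Lair1 (0.18, 0.19 and 0.22), Adamts4 to Fn1, Kif26b and Inhba (0.23, 0.24 and 0.24) and Adamts5 to Crispld2, Serinc3 and Mir22hg (0.15, 0.16 and 0.16). Adamts1 lay nearest to Klhl6, Tubb2a and Stbd1 (0.22, 0.23 and 0.24), and Adamts9 to Kat6b, Cyfip1 and Ppfibp1 (0.15, 0.17 and 0.19). Adamts7 lay nearest to Klhl3, Gsn and Lgals4 (0.22, 0.30 and 0.32). Adamts15 lay nearest to the complement gene C3, Cpxm1 and C1s1 (0.34, 0.40 and 0.41). Adamts8 lay nearest to Uck2 and to the cardiomyocyte stress genes Ankrd1 and Xirp2 (0.39, 0.41 and 0.44). Over the hearts the members' own SD ran from 0.37 log2 units for Adamts9 to 0.98 for Adamts4. A small distance therefore says less for a member that varied little.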
